A study of Rattus norvegicus with 145 samples.

Results

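The mRNA of 10 genes for liver growth factor receptors and their ligands was followed in rats given acetamide by daily gavage: Egfr, Erbb3, Met, Fgfr4 and Klb (receptors and a co-receptor), Hgf, Tgfa and Egf (ligands that promote growth), and Tgfb1 and Inhbe (ligands of the TGF-β family). They were taken by symbol from count tables that list 17337 genes. Of the 10, 9 are listed, Klb was not analysed here, and Egf has no reads, so that 8 were tested in each of the 5 data sets. The question is how their levels in the liver move with dose, since a mitogenic mode of action has been proposed for acetamide.

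RNA-Seq was done on the left liver lobe of rats in 29 groups of 5. Experiment A used Hsd:WI males aged 9 to 10 weeks given water vehicle (0) or acetamide at 30, 100, 300 and 1000 mkd (mg per kg body weight per day) for 7 days and sampled on day 8. Experiment B used Crl:WI males and females aged 8 to 10 weeks that received 0, 300, 500, 750, 1000 or 1500 mkd, for 7 days (day 8) or 28 days (day 29). Both experiments used outbred Wistar stocks with no transgene, and every rat, vehicle included, was gavaged and fasted overnight before sampling. The vehicle males of day 29 carry an exposure label of the other experiment, but their titles and strain place them in experiment B. The name "males" or "females" alone means experiment B from here on. Between 15449700 and 39986500 reads per rat fell on genes. Nothing in the labels ties rats of different groups to a shared litter or day. Hepatocyte markers dominated every data set, with a summed level of at least 197530 CPM (counts scaled to the library's total) in each vehicle rat. At 1500 mkd on day 29, the male of replicate 3 stood apart by its cell cycle genes, with a summed level of 1363 CPM for 20 genes against 53.1 to 123 CPM in the other 4 rats of its group.

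Liver cells receive growth signals through receptor tyrosine kinases. EGFR binds EGF and TGF-α, ERBB3 binds neuregulins and signals with a partner receptor because its own kinase is weak, and MET is the receptor for hepatocyte growth factor (HGF), which stellate cells and other non-parenchymal cells supply to hepatocytes. FGFR4 works with the co-receptor β-klotho to pass the intestinal FGF signal that represses bile acid synthesis. TGF-β1 restrains hepatocyte division and activates stellate cells, and Inhbe encodes the subunit of activin E, a factor secreted by hepatocytes.

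The 250 bases upstream of the annotated start are shown for 4 genes, the pair of receptor genes that fell and had a sequence and the pair of ligand genes that rose, to show how they differ in CG content. The sequences are those of RefSeq for the build GRCr8, whereas the authors aligned to Rn6, and 9 of the 10 genes had one; Erbb3 did not. Each is written from 5′ to 3′ on the strand of the gene, with CG dinucleotides in capitals.
Met, GRCr8 chr4:46784496-46784745, plus strand: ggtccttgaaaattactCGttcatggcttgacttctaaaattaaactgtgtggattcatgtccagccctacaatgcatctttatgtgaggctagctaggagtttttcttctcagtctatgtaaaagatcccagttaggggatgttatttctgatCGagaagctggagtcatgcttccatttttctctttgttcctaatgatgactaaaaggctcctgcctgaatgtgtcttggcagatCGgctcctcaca
Egfr, GRCr8 chr14:95378376-95378625, plus strand: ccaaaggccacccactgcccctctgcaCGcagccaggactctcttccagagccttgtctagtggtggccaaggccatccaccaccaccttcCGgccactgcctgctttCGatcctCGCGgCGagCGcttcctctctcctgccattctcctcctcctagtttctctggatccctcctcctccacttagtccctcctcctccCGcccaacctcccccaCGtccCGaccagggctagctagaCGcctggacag
Tgfb1, GRCr8 chr1:90324062-90324311, plus strand: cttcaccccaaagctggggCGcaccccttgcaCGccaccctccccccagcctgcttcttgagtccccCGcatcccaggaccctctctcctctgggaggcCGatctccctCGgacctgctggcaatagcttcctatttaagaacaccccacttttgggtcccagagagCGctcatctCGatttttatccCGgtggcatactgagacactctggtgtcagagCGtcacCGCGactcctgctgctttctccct
Hgf, GRCr8 chr4:19700468-19700717, minus strand: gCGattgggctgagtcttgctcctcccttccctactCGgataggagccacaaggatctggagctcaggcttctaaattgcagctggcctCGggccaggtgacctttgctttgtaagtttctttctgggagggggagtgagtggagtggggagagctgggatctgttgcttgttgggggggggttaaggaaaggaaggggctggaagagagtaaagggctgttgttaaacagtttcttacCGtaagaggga

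The Egfr window holds 11 CG dinucleotides at 63.6% G+C, while the Met window holds 3 at 42.0% G+C. The windows of Tgfb1 (11 CG, 60.0% G+C) and Hgf (4 CG, 54.0% G+C) differ in the same way. Over all 33465 promoter windows of this length the median is 5 CG and 51.2% G+C. The GC box GGGCGG, searched on both strands, starts 51 bases before the start of Egfr (position -51) and is in none of the other 3 windows shown. It occurs once in the window of Tgfa and 2 times in that of Fgfr4, and in 30.5% of all windows. The letters TGACTCA (in 4.05% of all windows), TATAAA (12.9%) and CACGTG (5.59%) are in none of the 9 windows. These matches are descriptions of the sequence and not binding sites.

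A gene was called at a dose when its |fold change| against vehicle was at least 1.5 and its Benjamini-Hochberg adjusted p from the quasi-likelihood test of edgeR, over all genes tested, at most 0.05. At the highest dose, 1 of 8 members was called in experiment A males, where 21.4% of all genes were called. In males the count was 0 of 8 on day 8 (0.177% of all genes) and 3 of 8 on day 29 (4.91%). In females it was 0 of 8 on day 8 (0.705%) and 2 of 8 on day 29 (13.1%). For both day 8 counts of 0 the Wald test of DESeq2 also gave 0, and 1 member in males (Met) and 0 in females had an unadjusted p under 0.05. At lower doses, members were called only in males on day 29, with 2 at 750 mkd and 3 at 1000 mkd. Of the 11279 genes tested there, 88 were called at 750 mkd, 311 at 1000 mkd and 3.03% at any lower dose. No member was called at a lower dose in experiment A males (0% of all genes), in males on day 8 (0%), or in females on day 8 (1.37%) or day 29 (1.62%). Behind these zeros, an unadjusted p under 0.05 was reached by 0 members at any of the 3 lower doses in experiment A (218 to 324 genes in all). In males on day 8 it was reached by 1 member at 750 mkd (Hgf, log2 fold change -0.69) and 0 at the other 3 doses, and in females on day 8 by 1 member at 1000 mkd (Met, -0.69) and 0 at the other 3. On day 29 it was reached in females by 1 to 3 members per dose. DESeq2 was run at the highest dose only.

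**Figure D1:**
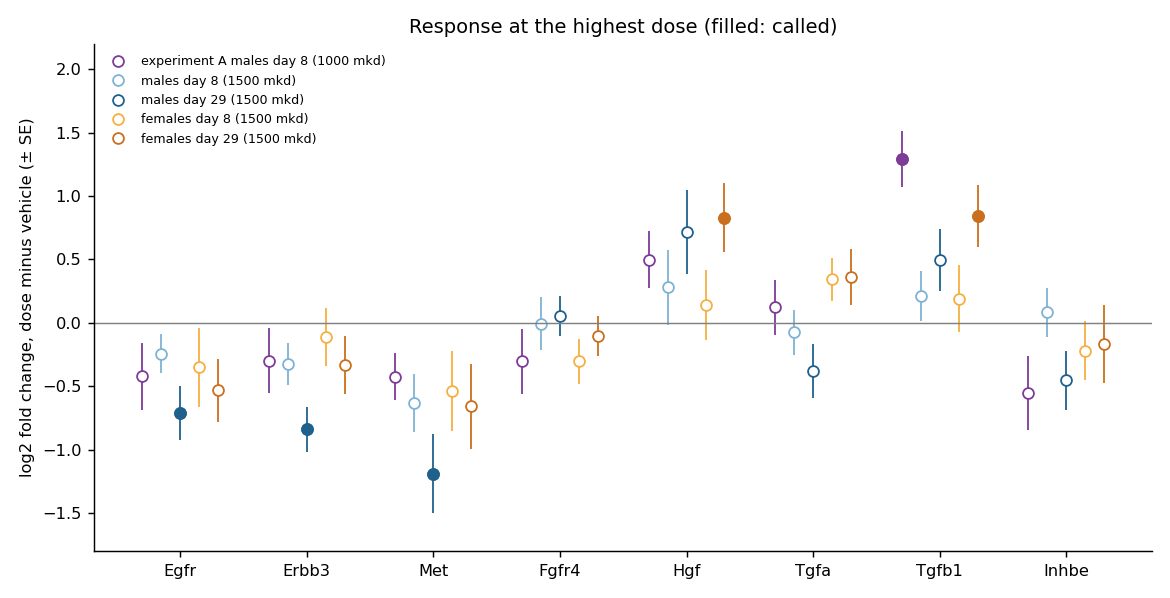
Log2 fold change of each of the 8 tested members at the highest dose against vehicle, with its SE, in the 5 data sets (1000 mkd in experiment A, 1500 mkd in experiment B; 5 rats per group), filled where the gene was called. Met, Erbb3 and Egfr lie below 0 in all 5 data sets and are called in males on day 29 only, whereas Hgf and Tgfb1 lie above 0 in all 5.

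The receptors Met, Erbb3 and Egfr fell in males after 28 days, by 1.64- to 2.28-fold at 1500 mkd. Met, the HGF receptor, was measured at 53.9, 62.6, 58.6, 49.9 and 45.4 CPM in the vehicle rats, and at 17.5, 13.2, 38.0, 30.0 and 19.7 CPM at 1500 mkd. The groups did not overlap, and the highest treated value belonged to the rat of replicate 3 that stood apart. Met fell by 1.19 on the log2 scale (SE 0.31), 2.28-fold, with an adjusted p of 0.0234 in edgeR. In bulk liver, fewer cells of a type and less RNA per cell cannot be told apart. The fold held at lower doses, at 2.45-fold (adjusted p = 0.0454) at 750 mkd and 2.38-fold (adjusted p = 0.0312) at 1000 mkd. At 500 mkd all 5 rats were also below every vehicle rat, at 26.8, 33.8, 16.1, 33.1 and 26.4 CPM, but the change of -0.99 (SE 0.31) did not pass the correction (adjusted p = 0.191). At 300 mkd, 3 of 5 rats were below every vehicle rat.

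The call for Met at 1500 mkd was lost on leaving out the treated rat of replicate 1 (log2 fold change -1.12, adjusted p = 0.0637) or of replicate 2 (-1.04, adjusted p = 0.0571), or the vehicle rat of replicate 2 (-1.13, adjusted p = 0.0602). Without the rat that stood apart, the log2 fold change was -1.49 (adjusted p = 0.0124).

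Erbb3, the neuregulin receptor, was measured at 109, 144.6, 109, 95.4 and 120 CPM in vehicle males on day 29. At 1500 mkd it was at 62.9, 54.5, 68.3, 71.2 and 65.2 CPM, so that all treated rats lay below all vehicle rats within a narrow range. It fell by 0.84 on the log2 scale (SE 0.18), 1.79-fold, with an adjusted p of 0.00911. The changes were 1.88-fold at 1000 mkd (adjusted p = 0.0149) and 1.71-fold at 750 mkd (adjusted p = 0.0414). At 500 mkd the change was -0.73 (SE 0.18, adjusted p = 0.172) with all 5 rats below the vehicle range. The call at 1500 mkd held in all 16 alternatives, with adjusted p from 0.000426 to 0.0347.

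Egfr, the receptor for EGF and TGF-α, was at 163, 172, 190, 214 and 165 CPM in vehicle males on day 29. At 1500 mkd it was at 93.9, 134, 89.0, 142 and 94.6 CPM, again without overlap. It fell by 0.71 on the log2 scale (SE 0.21), 1.64-fold, with an adjusted p of 0.0401. The change at 1000 mkd was 1.90-fold (adjusted p = 0.0263). At 750 mkd it was -0.57 (SE 0.21, adjusted p = 0.116), and at 500 mkd -0.81 (SE 0.21, adjusted p = 0.190), with 5 of 5 rats below the vehicle range.

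Egfr was the least firm of the 3 calls. It was lost on leaving out the treated rat of replicate 1 (log2 fold change -0.68, adjusted p = 0.0972) or of replicate 5 (-0.72, adjusted p = 0.0588). It was also lost without the vehicle rat of replicate 2 (-0.73, adjusted p = 0.0724), of replicate 3 (-0.75, adjusted p = 0.0620) or of replicate 4 (-0.69, adjusted p = 0.0761).

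**Figure D2:**
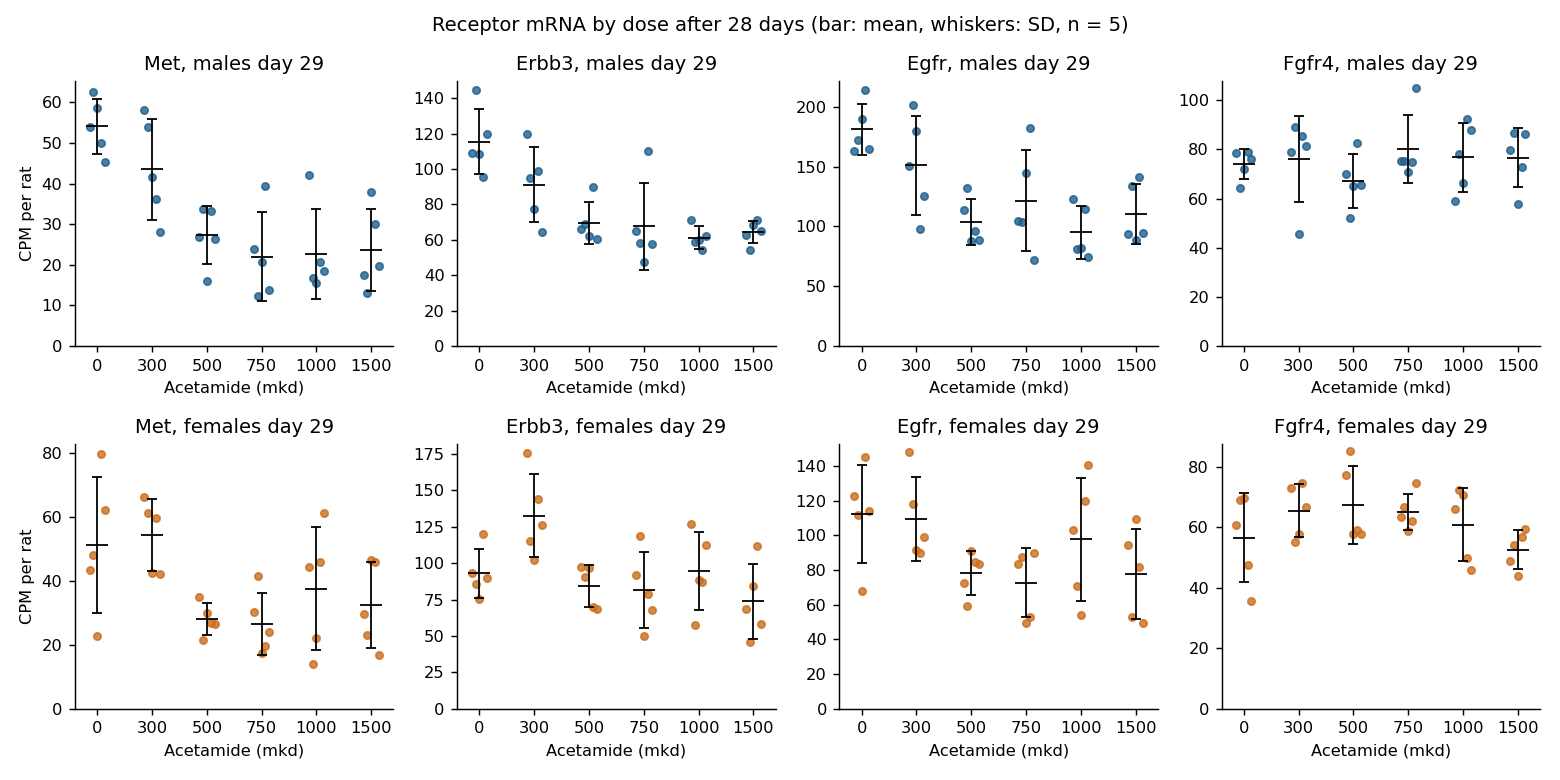
Level of 4 receptors in CPM in each rat on day 29 by dose in males (top) and females (bottom), with the mean and SD of 5 rats. In males, Met, Erbb3 and Egfr lie below the vehicle rats in every rat at 500, 1000 and 1500 mkd, with 1 Erbb3 and 1 Egfr value inside the vehicle range at 750 mkd, whereas Fgfr4 stays between 45.5 and 105 CPM. In females the treated and vehicle ranges of all 4 genes overlap at every dose.

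None of these receptors was called in females on day 29. Met was at 43.5, 48.0, 22.7, 79.6 and 62.2 CPM in vehicle females and at 29.6, 22.9, 46.7, 45.8 and 17.0 CPM at 1500 mkd. The vehicle females ranged more widely than the vehicle males, and only 1 treated female lay below all of them. The change was -0.66 (SE 0.33, adjusted p = 0.169). It was -0.94 (SE 0.34, adjusted p = 0.180) at 750 mkd and -0.87 (SE 0.34, adjusted p = 0.327) at 500 mkd. At 1000 mkd Met was at 44.4, 14.1, 22.0, 46.1 and 61.2 CPM, and at 300 mkd at 66.4, 61.1, 42.5, 59.5 and 42.2 CPM. Egfr changed by -0.53 (SE 0.25, adjusted p = 0.133) and Erbb3 by -0.34 (SE 0.23, adjusted p = 0.316) at 1500 mkd.

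On day 8, Met was at 65.7, 42.7, 49.0, 74.2 and 71.8 CPM in vehicle males and at 38.3, 20.9, 45.1, 31.8 and 59.2 CPM at 1500 mkd. The log2 fold change was -0.63 (SE 0.23, adjusted p = 0.215), and 3 of 5 treated rats lay below the vehicle range. In females on day 8 it was -0.54 (SE 0.32, adjusted p = 0.455), and in experiment A males at 1000 mkd -0.42 (SE 0.19, adjusted p = 0.0858). Erbb3 and Egfr changed by -0.11 to -0.42 in these 3 data sets, none of them past the correction.

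Fgfr4, the receptor for the intestinal FGF signal, was called in no data set. In males on day 29 it was at 78.5, 64.1, 71.9, 78.9 and 75.9 CPM with vehicle and at 79.7, 86.7, 57.7, 72.8 and 86.1 CPM at 1500 mkd, a change of 0.05 (SE 0.16, adjusted p = 0.854). The other changes at the highest dose ran from -0.31 in females on day 8 to -0.01 in males on day 8. The sign in males on day 8 turned in 7 of 16 alternatives, and that in males on day 29 in 3 of 16.

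Among the ligands, Hgf rose in females on day 29. It was at 9.06, 18.6, 8.63, 16.8 and 10.2 CPM in vehicle females and at 22.6, 33.6, 18.3, 15.5 and 22.6 CPM at 1500 mkd. A pair of vehicle rats overlapped the treated range, and 3 of 5 treated rats exceeded all vehicle rats. Hgf rose by 0.83 on the log2 scale (SE 0.27), 1.78-fold, with an adjusted p of 0.0311. The changes at 1000 mkd (0.91, SE 0.27, adjusted p = 0.0683) and 500 mkd (0.81, SE 0.27, adjusted p = 0.262) were of the same size but did not pass the correction. At 750 mkd, between them, Hgf was at 12.0, 17.1, 18.1, 15.6 and 18.7 CPM. At 300 mkd it was at 7.67, 19.8, 10.7, 7.24 and 15.7 CPM. The call was lost with only the vehicle and 1500 mkd groups in the fit (0.82, adjusted p = 0.0850). It was also lost without the treated rat of replicate 2 (0.65, adjusted p = 0.136) or without the vehicle rat of replicate 1 (0.74, adjusted p = 0.0797), of replicate 3 (0.72, adjusted p = 0.0682) or of replicate 5 (0.78, adjusted p = 0.0761).

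Hgf in males on day 29 was at 15.3, 7.99, 8.38, 5.15 and 13.1 CPM with vehicle and at 17.1, 9.81, 23.0, 22.4 and 9.54 CPM at 1500 mkd. The groups overlapped, with a change of 0.71 (SE 0.33, adjusted p = 0.164), and of 0.50 (adjusted p = 0.344) without the rat that stood apart. In experiment A males the change at 1000 mkd was 0.50 (SE 0.22, adjusted p = 0.0923), and without the vehicle rat of replicate 5 it was called (0.69, adjusted p = 0.0230). The day 8 changes in experiment B were 0.28 (SE 0.29) in males and 0.14 (SE 0.28) in females, with adjusted p of 0.734 and 0.872.

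Tgfb1, the growth-restraining cytokine, rose in experiment A males and in females on day 29. In experiment A it was at 6.80, 5.84, 5.03, 6.65 and 6.30 CPM with vehicle and at 13.4, 17.1, 10.6, 17.3 and 16.8 CPM at 1000 mkd. All treated rats exceeded all vehicle rats, and the log2 fold change was 1.29 (SE 0.22), 2.45-fold, with an adjusted p of 0.000313. At 30, 100 and 300 mkd its group means were 5.46, 6.87 and 6.20 CPM, against 6.13 CPM with vehicle. The call held in all 16 alternatives.

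Tgfb1 in females on day 29 was at 5.99, 14.2, 12.4, 7.83 and 5.36 CPM with vehicle and at 21.0, 20.7, 17.4, 13.5 and 9.32 CPM at 1500 mkd. The ranges overlapped, and 3 of 5 treated rats exceeded all vehicle rats. Tgfb1 rose by 0.84 on the log2 scale (SE 0.24), 1.79-fold, with an adjusted p of 0.0156. Group means were 9.14 CPM with vehicle and 9.66, 11.0, 11.9, 14.6 and 16.4 CPM at the 5 doses in ascending order. The call was lost with only the vehicle and 1500 mkd groups in the fit (0.84, adjusted p = 0.111), without the treated rat of replicate 2 (0.76, adjusted p = 0.0570) and without the vehicle rat of replicate 5 (0.72, adjusted p = 0.0527). Its change in males on day 29 was 0.50 (SE 0.24, adjusted p = 0.189). On day 8 of experiment B it was 0.21 (SE 0.20) in males and 0.19 (SE 0.26) in females, with adjusted p of 0.702 and 0.795.

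**Figure D3:**
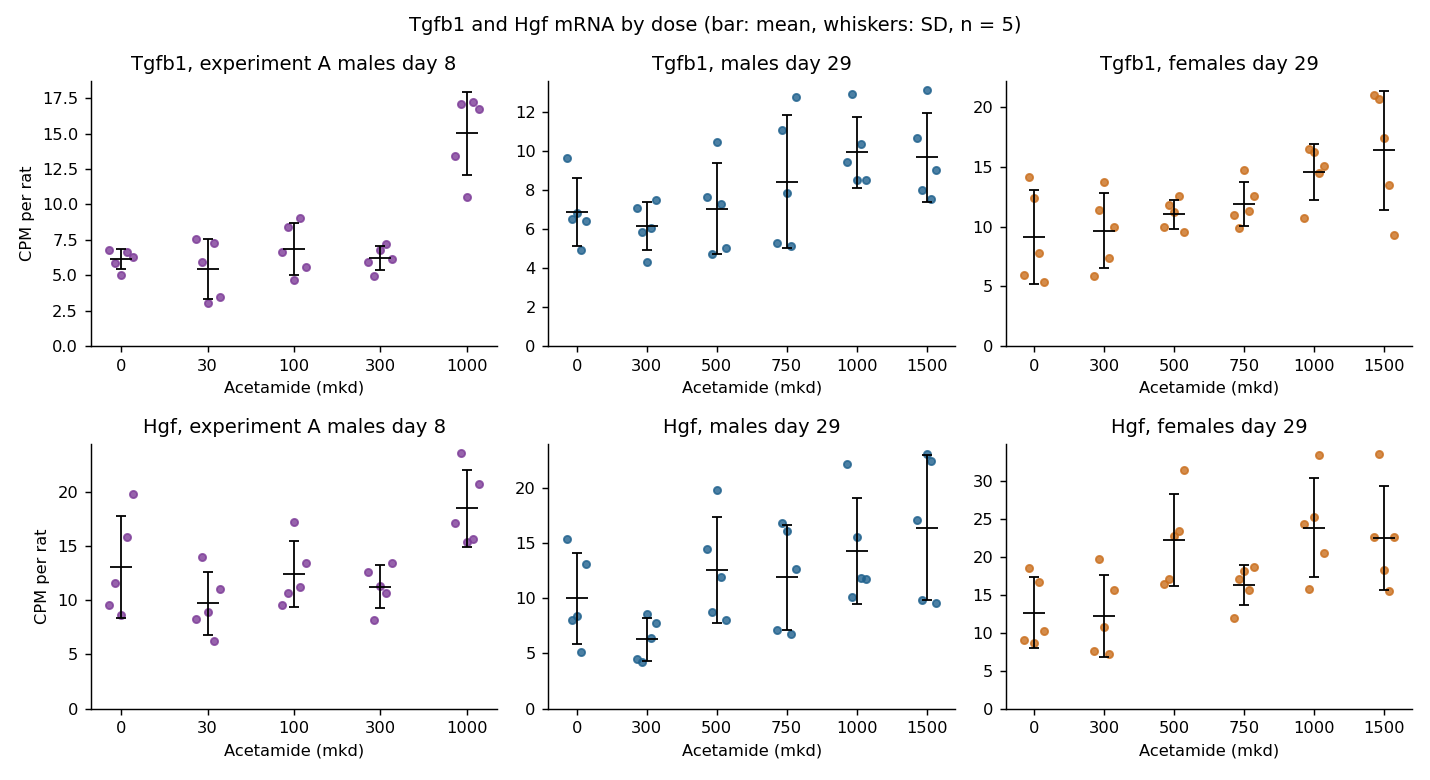
Level of Tgfb1 (top) and Hgf (bottom) in CPM in each rat by dose in experiment A males on day 8 and in males and females on day 29, with the mean and SD of 5 rats. Tgfb1 in experiment A lies between 3.06 and 9.04 CPM up to 300 mkd and between 10.6 and 17.3 CPM at 1000 mkd, and in females on day 29 its group mean is 9.14 CPM with vehicle and 16.4 CPM at 1500 mkd.

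Markers of non-hepatocyte cells moved beside Tgfb1 and Hgf. The background for these counts and for those of the pathway lists is the share of all genes called higher or lower at the highest dose, which was 14.0% and 7.45% in experiment A, 3.16% and 1.76% in males on day 29, and 9.55% and 3.54% in females on day 29. On day 8 of experiment B this share was 0.142% and 0.0354% in males and 0.522% and 0.183% in females. Of 10 Kupffer cell and macrophage markers, 6 were called higher in experiment A males at 1000 mkd and 4 in females on day 29, and 0 in the other 3 data sets. Their summed level was 534 to 1626 CPM with vehicle and 1325 to 2371 CPM at 1000 mkd in experiment A. For females on day 29 it was 1007 to 1245 CPM with vehicle and 1151 to 2269 CPM at 1500 mkd. For males on day 29 it was 337 to 874 CPM with vehicle and 558 to 1389 CPM at 1500 mkd.

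Of 9 stellate cell markers, 4 were called higher in females on day 29, with a summed level of 82.7 to 163 CPM with vehicle and 148 to 261 CPM at 1500 mkd. In experiment A, 2 were called, a share not far from that of all genes, with 87.7 to 187 CPM and 132 to 222 CPM. Of 9 T and NK cell markers, 8 were called higher in experiment A and 2 of 7 tested in females on day 29. Of 6 endothelial markers tested, 4 and 2 were called higher. Of 10 hepatocyte markers, 5 were called lower in experiment A, and in females on day 29, 3 were lower and 1 higher. Their summed level did not overlap between groups in either data set, at 252769 to 338119 CPM with vehicle and 77155 to 247410 CPM at 1000 mkd in experiment A. In the females it was 197530 to 382473 CPM with vehicle and 92840 to 196472 CPM at 1500 mkd. The lowest rat of experiment A, replicate 2 at 1000 mkd, was also the lowest for Inhbe (30.6 CPM). Without it the change of Tgfb1 was 1.25 (adjusted p = 0.00125) and that of Inhbe -0.33 (adjusted p = 0.359). The males on day 29, in which the receptors fell, had 1 of 10 hepatocyte markers lower (1.76% of all genes). The summed level of the 10 in these males was 199920 to 251931 CPM with vehicle and 112276 to 223056 CPM at 1500 mkd, so that the ranges overlapped. The part of these cell types in the member changes was not tested. Of 6 cholangiocyte markers tested, 1 was called higher in experiment A, 1 in males and 2 in females on day 29. None of the listed markers was at 0 in all rats of a data set.

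**Figure D4:**
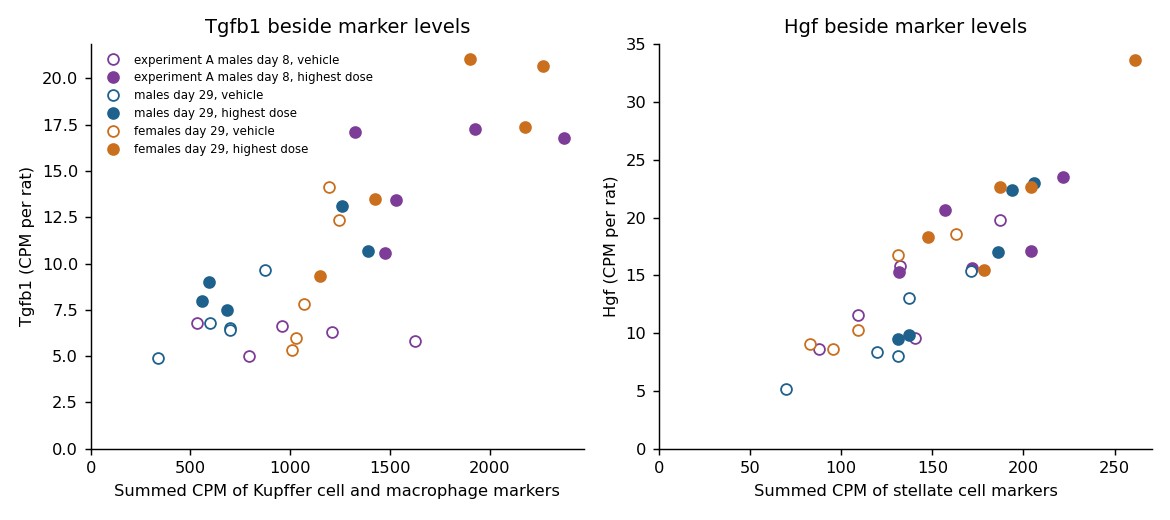
Level of Tgfb1 against the summed level of 10 macrophage markers (left) and of Hgf against that of 9 stellate cell markers (right), in CPM, in the vehicle rats (open) and highest dose rats (filled) of 3 data sets. In experiment A, Tgfb1 is 5.03 to 6.80 CPM at 534 to 1626 CPM of macrophage markers in vehicle rats and 10.6 to 17.3 CPM at 1325 to 2371 CPM in treated rats. In treated females on day 29, Tgfb1 of 21.0, 20.7, 17.4, 13.5 and 9.32 CPM stands beside 1901, 2269, 2178, 1423 and 1151 CPM of macrophage markers, and Hgf of 22.6, 33.6, 18.3, 15.5 and 22.6 CPM beside 187, 261, 148, 178 and 204 CPM of stellate markers.

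Tgfa and Inhbe were not called at any dose. Tgfa, the hepatocyte ligand of EGFR, was at 12.5, 11.8, 14.9, 16.0 and 9.02 CPM in vehicle males on day 29 and at 8.07, 8.65, 13.3, 9.93 and 9.38 CPM at 1500 mkd, a change of -0.38 (SE 0.21, adjusted p = 0.248). The value in females on day 29 was 0.36 (SE 0.22, adjusted p = 0.265), with 6.14, 7.01, 5.03, 6.16 and 6.52 CPM with vehicle and 7.26, 7.13, 9.60, 10.8 and 4.77 CPM at 1500 mkd. In females on day 8 it was 0.34 (SE 0.17, adjusted p = 0.354), with 4 of 5 treated rats above the vehicle range.

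Inhbe, the activin E gene, was at 161, 126, 135, 168 and 115 CPM in vehicle rats of experiment A and at 109, 30.6, 112, 88.8 and 139 CPM at 1000 mkd. The change was -0.55 (SE 0.29, adjusted p = 0.150), with 4 of 5 treated rats below the vehicle range. It was -0.45 (SE 0.23, adjusted p = 0.202) in males on day 29, and between -0.22 and 0.08 in the remaining data sets.

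Egf had 0 reads in every rat. Over 4025910000 reads, a count of 0 allows up to 0.000745 CPM (3 counts of the total, here without TMM scaling), and 0.0750 to 0.194 CPM in a single rat. These limits cover counting error only, and the sources used here do not show whether the Egf gene model used for counting could receive reads. The 0 is therefore a value of these tables and not a measure of the mRNA. No fold change is given for Egf.

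A linear trend over dose within a data set uses all of its rats and was called on the adjusted p alone. In experiment A males 3 of 8 members were called (45.9% of all genes). Per 1000 mkd, Tgfb1 rose by 1.35 on the log2 scale (SE 0.18, adjusted p = 1.48e-06), Hgf rose by 0.68 (SE 0.19, adjusted p = 0.00503) and Met fell by 0.41 (SE 0.16, adjusted p = 0.0356). Without the 1000 mkd group, which leaves doses of 0 to 300 mkd, 0 of 8 members were called. The slope of Tgfb1 was then 0.27 and that of Hgf -0.17, while that of Met was steeper at -0.84, each with an adjusted p of 0.999. The Hgf trend was also lost with the number of the dose group in place of the dose (0.12 per group, adjusted p = 0.102). The Met trend was also lost without replicate 1, 2, 3 or 4 of every group, with adjusted p from 0.0837 to 0.123. Egfr (without replicate 3, adjusted p = 0.0480) and Erbb3 (without replicate 5, adjusted p = 0.0483) were called in a single setting each.

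In males on day 29, 5 of 8 members were called (24.5% of all genes). Per 1000 mkd, Met fell by 0.84 (SE 0.19, adjusted p = 0.00304), Erbb3 fell by 0.56 (SE 0.11, adjusted p = 0.00122) and Egfr fell by 0.49 (SE 0.13, adjusted p = 0.0113). These 3 trends held in all 10 alternatives. Hgf rose by 0.64 (SE 0.21, adjusted p = 0.0252) and Tgfb1 rose by 0.46 (SE 0.14, adjusted p = 0.0203). Without the 1500 mkd group both missed the threshold at slopes no smaller than with it, 0.65 for Hgf (adjusted p = 0.122) and 0.55 for Tgfb1 (adjusted p = 0.0575). Their calls were also lost, with the adjusted p of Hgf first, without replicate 2 (0.0544 and 0.0693), replicate 3 (0.0944 and 0.0947) or replicate 4 of every group (0.156 and 0.0617). Replicate 3 includes the rat that stood apart. Inhbe (-0.32, adjusted p = 0.0675) and Tgfa (-0.31, adjusted p = 0.0679) missed the threshold and were called without replicate 3 (-0.40, adjusted p = 0.0381, and -0.42, adjusted p = 0.0477) and with no filter on low counts (adjusted p = 0.0479 and 0.0497). Inhbe was also called with the number of the dose group as the scale (adjusted p = 0.0478). The same trend test called 6 of 9 stellate cell, 4 of 10 macrophage and 4 of 6 cholangiocyte markers higher in these males (13.9% of all genes higher), and 3 of 10 hepatocyte markers lower (10.6% of all genes lower). Their part in the member trends was not tested.

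In females on day 29, 2 of 8 members were called (27.3% of all genes). Hgf rose by 0.61 per 1000 mkd (SE 0.18, adjusted p = 0.0121) and Tgfb1 rose by 0.61 (SE 0.13, adjusted p = 0.00112). Hgf was lost without replicate 1 of every group (0.53, adjusted p = 0.0634), and Met was called without replicate 3 (-0.63, adjusted p = 0.0423). On day 8 of experiment B, edgeR called 0 of 8 members in males (2.52% of all genes) and 0 of 8 in females (5.44%). At an unadjusted p under 0.05 there were 2 in males, Met (-0.40, SE 0.13) and Erbb3 (-0.21, SE 0.10), and 1 in females, Tgfa (0.29, SE 0.10). Without replicate 5 of every group, Met (-0.54, adjusted p = 0.0235) and Erbb3 (-0.34, adjusted p = 0.0224) were called in males.

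Whether the response itself differed between data sets was tested as an interaction. The response to 1500 mkd differed between the sexes for 0 of 8 members on day 8 (0% of all genes, 533 genes at an unadjusted p under 0.05). On day 29 it was 0 of 8 (0.0688% of all genes). The difference on day 29, female minus male, was 0.56 for Met (95% interval -0.39 to 1.51), 0.54 for Erbb3 (-0.06 to 1.13) and 0.21 for Egfr (-0.47 to 0.89). The intervals do not leave out equal responses, so that a fall of the receptors in males alone was not shown. Only Tgfa had an unadjusted p under 0.05 on day 29, with a difference of 0.77 (0.14 to 1.40, adjusted p = 0.207).

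Between day 29 and day 8, the response differed for 0 of 8 members in males (0% of all genes, 538 at an unadjusted p under 0.05) and 0 of 8 in females (0.00858%). In males, day 29 minus day 8, the difference was -0.59 for Met (95% interval -1.39 to 0.21), -0.55 for Erbb3 (-1.05 to -0.05, adjusted p = 0.988) and -0.50 for Egfr (-1.04 to 0.04). In females it was 0.69 for Hgf (-0.11 to 1.49) and 0.66 for Tgfb1 (-0.08 to 1.40).

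Between the experiments, the response of day 8 males to the shared dose of 1000 mkd differed for 1 of 8 members (7.48% of all genes). Tgfb1 was 15.0 CPM ± 2.95 (SD, n = 5) at 1000 mkd against 6.13 CPM ± 0.716 with vehicle in experiment A. In experiment B it was 7.64 CPM ± 1.79 against 7.73 CPM ± 2.05. The difference of the log2 fold changes, A minus B, was 1.30 (SE 0.29, 95% interval 0.71 to 1.89, adjusted p = 0.00867). It was lost without replicate 4 of every group (1.16, adjusted p = 0.142). For Hgf it was 0.92 (0.15 to 1.70, adjusted p = 0.124). The experiments also differ in stock and age, which cannot be told apart from the experiment.

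In the absence of acetamide, Tgfa was lower in females than in males. The sexes form separate data sets, so sex and data set cannot be told apart in the vehicle levels compared here for either day. On day 8 it was at 8.04, 10.8, 12.2, 13.3 and 10.6 CPM in vehicle males and at 5.07, 8.03, 7.05, 8.23 and 7.41 CPM in vehicle females, so that the ranges overlapped in 1 male. The difference was -0.79 (SE 0.17), 1.73-fold, with an adjusted p of 0.000892, and Tgfa was the only one of 8 members called (8.37% of all genes). On day 29 it was -1.17 (SE 0.23), 2.25-fold, with an adjusted p of 0.000115 and no overlap (9.02 to 16.0 CPM in males, 5.03 to 7.01 CPM in females). Both held in all 8 alternatives.

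On day 29, 2 of 8 members were called between vehicle sexes (11.6% of all genes). Egfr was at 123, 112, 67.8, 145.2 and 114 CPM in vehicle females, all below the 163 to 214 CPM of vehicle males. The difference was -0.80 (SE 0.24), 1.75-fold, with an adjusted p of 0.0148. It was lost without replicate 3 of every dose group in both sexes (-0.67, adjusted p = 0.0668). On day 8 the Egfr difference was 0.07 (SE 0.25, adjusted p = 0.907). Fgfr4 differed by -0.50 (SE 0.16, adjusted p = 0.0222) on day 29, under the 1.5-fold limit, and passed it without replicate 2 (-0.63, adjusted p = 0.0140) or replicate 3 (-0.61, adjusted p = 0.0108). Inhbe (-0.66, adjusted p = 0.0945) was called without replicate 3 alone (-1.05, adjusted p = 0.00676).

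**Figure D5:**
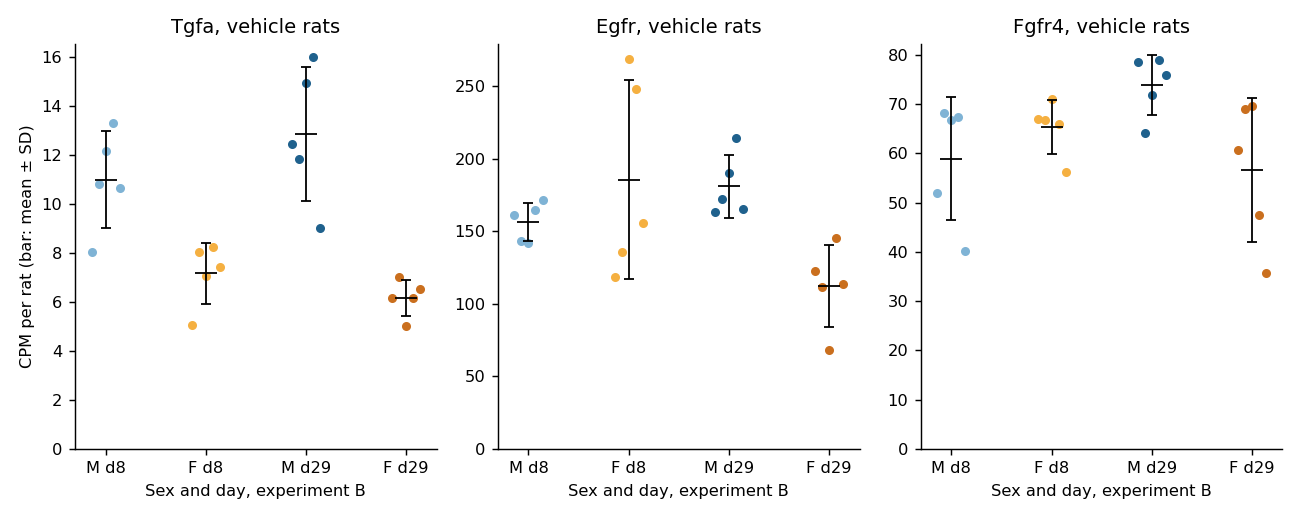
Level of Tgfa, Egfr and Fgfr4 in CPM in each vehicle rat of experiment B by sex (M, F) and day (d8, d29), with the mean and SD of 5 rats. On day 29 the females lie at 5.03 to 7.01 CPM of Tgfa and the males at 9.02 to 16.0 CPM, and no Egfr value of a female reaches the lowest male value of 163 CPM.

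The other genes of these pathways were followed by list. Of the ErbB ligands, receptors and regulators tested, 1 of 8 was called higher and 1 lower at the highest dose in experiment A males. The count was 2 of 7 higher in females on day 29, and 0 in the other 3 data sets. The gene called lower was Errfi1 (-0.90, SE 0.34, adjusted p = 0.0481), which encodes an inhibitor of EGFR and is neither ligand nor receptor. Nrg1, a neuregulin that binds ERBB3, rose by 1.33 (SE 0.33, adjusted p = 0.00427) in experiment A and by 1.03 (SE 0.29, adjusted p = 0.0121) in females on day 29. Its change in males on day 29, where Erbb3 fell, was 0.28 (SE 0.21, adjusted p = 0.398). The median change of this list was 0.52 in experiment A and 0.21 in females on day 29, beside medians of 0.00 for all genes. With 2 of 8 called in experiment A against 21.4% of all genes, the count is near the background.

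Of 11 genes that activate HGF or form the related MST1 axis, 4 were higher and 1 lower in experiment A, and likewise 4 and 1 in females on day 29. Plaur, the urokinase receptor, rose by 1.12 (SE 0.28) and 1.28 (SE 0.29). Plau, the urokinase that can cleave pro-HGF, rose by 1.14 (SE 0.23) and 0.73 (SE 0.24), and St14, the membrane protease matriptase, by 1.28 (SE 0.27) and 1.03 (SE 0.27). Of the 11, 0 were called in males on day 29, where 9 had a change above 0, with a list median of 0.30 beside 0.07 for all genes. In the FGF axis, 0 genes were called at the highest dose in any data set.

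Of the TGF-β and activin axis, 2 genes were higher and 1 lower of 23 tested in experiment A, 3 higher and 1 lower of 24 in females on day 29, and 0 higher and 2 lower of 23 in males on day 29. Of all genes, 14.0% were higher and 7.45% lower in experiment A, 9.55% and 3.54% in females on day 29, and 3.16% and 1.76% in males on day 29. The counts of higher genes in this axis do not stand out from these shares. Inhbc, which encodes the activin C subunit, fell by 1.00 (SE 0.26, adjusted p = 0.00656) in experiment A. It fell by 0.59 (SE 0.18, adjusted p = 0.0411) in males on day 29 and by 0.66 (SE 0.14, adjusted p = 0.00171) in females on day 29. Tgfbr3, the co-receptor betaglycan, rose by 1.19 (SE 0.28) in experiment A and 0.77 (SE 0.27) in females on day 29. A list of TGF-β target genes, not all of them specific to TGF-β, had 11 genes tested. Of these, 5 were higher in experiment A, 3 in females on day 29 and 1 in males on day 29, and none was lower. Timp1, an inhibitor of matrix proteases, was the one called in all 3, with rises of 0.92 (SE 0.30), 0.97 (SE 0.25) and 0.97 (SE 0.25).

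Of the growth factor feedback and early response genes, 4 of 20 were higher in experiment A and 3 of 21 in females on day 29, beside 14.0% and 9.55% of all genes. Ccnd1 (cyclin D1) rose by 1.63 (SE 0.34) and 0.99 (SE 0.26), and Etv5, a transcription factor induced by ERK signalling, by 1.09 (SE 0.23) and 0.94 (SE 0.24). Of these 20, 0 were called in males on day 29, and Ccnd1 changed by 0.46 (SE 0.27, adjusted p = 0.278). Of 21 signal transducers tested, 1 was called higher in experiment A and 1 in females on day 29, beside 14.0% and 9.55% of all genes. Both calls were of Gab2, a docking protein, which rose by 1.52 (SE 0.31) and 1.20 (SE 0.32). Of the 21, 1 was lower in females on day 8. Of 13 genes of the integrated stress response, 6 were higher and 1 lower in experiment A, 1 was higher in females on day 8 and 2 in females on day 29, with 0 called in males of experiment B. Phgdh, the first enzyme of serine synthesis, rose in females by 2.98 (SE 0.72) on day 8 and by 1.52 (SE 0.34) on day 29, and Vldlr rose by 1.07 (SE 0.32) in experiment A and 0.99 (SE 0.35) in females on day 29. Of 12 circadian clock genes, 0 were called at the highest dose in any data set.

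Of 20 cell cycle genes, 19 were higher in experiment A, 15 in males on day 29, 2 in females on day 8 and 20 in females on day 29, with 0 called in males on day 8, where all 20 had a change above 0. Without the male rat that stood apart, 6 of 20 were called in males on day 29 and the list median went from 3.47 to 0.89. Rrm2, which makes deoxynucleotides, rose by 2.39 (SE 0.58), 3.60 (SE 0.81) and 3.60 (SE 0.69) in experiment A males, males on day 29 and females on day 29. Ccnb1 rose by 1.89 (SE 0.55), 3.90 (SE 0.77) and 3.02 (SE 0.46), and also in females on day 8 by 2.22 (SE 0.55, adjusted p = 0.0470). Cdk1 rose by 1.66 (SE 0.62), 3.78 (SE 0.73) and 3.23 (SE 0.48), and Plk1 by 2.29 (SE 0.43), 3.59 (SE 0.74) and 2.81 (SE 0.41). Met, Erbb3 and Egfr were called in males on day 29 with and without that rat.

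The genes most like each member were taken by Pearson's r of log2 CPM over the rats of all 29 groups, each centred on its data set, among 11066 genes tested everywhere. The rats share doses and libraries, so r is a description only. Met was most like Edem3 (r = 0.92), Prkaa2 (0.92) and Sec24a (0.92). Erbb3 was most like Insr, the insulin receptor (0.83), Akap1 (0.82) and Furin (0.81), and Egfr most like Lrp6, a Wnt co-receptor (0.81), Nup98 (0.78) and Abhd2 (0.76). Among the members, Met and Egfr (0.74) and Met and Erbb3 (0.67) were the most alike.

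Hgf was most like Steap4 (0.85), Sema3d (0.84) and Pdgfra (0.83), the last a member of the stellate cell list. Tgfb1 was most like Fermt3 (0.91), Sdc3 (0.90) and Ucp2 (0.90), and Hgf and Tgfb1 had an r of 0.39 with each other. Fgfr4 was most like R3hdm4 (0.86), Pik3r2 (0.85) and Ehmt2 (0.85). Tgfa had no gene above 0.68 (Fgd1, then Lasp1 at 0.66 and Rab11fip1 at 0.65), and Inhbe none above 0.60 (G0s2, a regulator of fat breakdown, then Cidec at 0.55).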

How the data were processed

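Per the labels and the study's methods, stranded mRNA libraries of left liver lobe were sequenced, and the authors trimmed reads with Trimmomatic, aligned them to Rn6 with Bowtie2 and deposited the raw counts per gene from HTSeq, with no normalization. The strand setting of the counting is not given in the sources used here. HTSeq summary lines in the tables of experiment B (35.5 to 67.1% of a rat's counts) entered neither library sizes nor tests. No per-sample column was left out for want of a sample. From these counts, CPM with TMM normalization, log2 fold changes and adjusted p-values were computed with edgeR 4.0.16 in R 4.3.3 (quasi-likelihood test, genes kept by filterByExpr, all dose groups of a data set in one fit, Benjamini-Hochberg over all genes tested). Likeness used log2 CPM with a prior count of 2. Scripts were tested on simulated data. Between rats of a group nothing but the label marks them as separate animals. The p-values measure the spread between these samples.

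Groups came from the labels. The members and the lists were chosen with earlier results of these data known. Named genes are all members, up to 4 genes of each list called at the highest dose in at least 2 of 5 data sets with the largest mean absolute change, and the 3 genes most like each member, of which 1 is not reported here. As alternatives, DESeq2 1.42.0 (Wald test) or its size factors were used, the low-count filter was dropped or set to a minimum of 10 counts per rat, a replicate block was added, the fit was limited to 2 groups, the dose scale was changed, the highest dose was dropped, and rats or replicates were left out. Leaving out the rat that stood apart from the cell cycle count was chosen after seeing the data. The study reported this rat as an outlier by its Ki67 proliferation labeling and left it out of its benchmark dose modeling. Same-numbered rats of the vehicle and highest dose groups deviated from their group means with correlations from -0.249 to 0.336. Whether replicate numbers pair the rats was not settled by these values.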

Additional observations from a re-analysis of the deposited data

Results flagged for a closer look

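In groups of 5 rats, the highest or lowest rat was compared with the others by Dixon's criterion (gap to the nearest rat over the whole range above 0.71). Of 232 groups of the 8 tested members, 13 were marked, where chance marks about 11.6.

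For Erbb3 the rat of replicate 4 was high in males on day 29 at 500 mkd (89.7 CPM, next rat 68.7) and at 750 mkd (110 CPM, next 64.9), and that of replicate 1 was low in vehicle females on day 8 (124 CPM, next 163). For Met the rat of replicate 1 was high in males on day 29 at 1000 mkd (42.2 CPM, next 20.6).

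For Hgf the rat of replicate 4 was high in males on day 8 at 1500 mkd (35.4 CPM, next 22.2) and in vehicle females on day 8 (29.5 CPM, next 18.1). For Tgfa a rat was low at 300 mkd on day 29 in males (10.2 CPM, next 14.5) and in females (3.35 CPM, next 6.16).

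For Fgfr4 a rat was low at 300 mkd in experiment A (39.7 CPM, next 59.7) and in males on day 29 (45.5 CPM, next 78.9), and a rat was high in males on day 29 at 750 mkd (105 CPM, next 75.2). For Inhbe a rat was high in males on day 8 at 300 mkd (154 CPM, next 108) and in females on day 29 at 1500 mkd (154 CPM, next 86.0).

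The response of Tgfb1 to 1000 mkd differed between experiment A and experiment B in males on day 8, by 1.30 on the log2 scale (SE 0.29, adjusted p = 0.00867 in edgeR).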

How the results depend on the processing

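Of 1488 comparisons of a single member with its value under an alternative, 1439 kept their side of the threshold, 34 lost the call, 14 gained it and 1 lost the call with a change of sign, the Hgf trend in experiment A without the highest dose (-0.17). The counts of members called at the highest dose ranged on leaving out 1 rat from 1 to 2 in experiment A males (1 with all rats), from 1 to 3 in males on day 29 (3) and from 0 to 2 in females on day 29 (2). The last count was 0 with only the vehicle and highest dose groups in the fit. Dose trends without the highest dose fell from 3 to 0 members in experiment A and from 5 to 3 in males on day 29. Leaving out a replicate of every group gave 0 to 2 members with a trend in males on day 8 (0 with all), 3 to 5 in males on day 29 (5) and 1 to 3 in females on day 29 (2). For the difference between the experiments it gave 0 to 1 (1). The replicate block changed no count of members called: 1 in experiment A, 0 in males on day 8, 3 in males on day 29, 0 in females on day 8 and 2 in females on day 29 at the highest dose, with 33 genes called in all in place of 20 in males on day 8 and 3 in place of 81 in females on day 8. DESeq2 called 175 in place of 20 genes in males on day 8 and 338 in place of 81 in females on day 8, none of them a member. With only vehicle and highest dose in the fit, 210 genes were called in place of 554 in males on day 29, 488 in place of 1498 in females on day 29, and 11 in both day 8 data sets of experiment B. Without the highest dose, 1 gene in place of 5195 had a trend in experiment A, 1 in place of 285 in males on day 8 and 1040 in place of 3127 in females on day 29, and dose group number gave 2769 in experiment A. Leaving out 1 rat gave 226 to 687 genes in males and 802 to 1982 in females on day 29, 2 to 86 in males and 1 to 426 in females on day 8. Leaving out a replicate gave 1357 to 2434 genes with a trend in males on day 29, 27 to 396 in males and 11 to 652 in females on day 8, and 0 to 1096 in place of 866 for the experiments (0 without replicate 4). Without the rat that stood apart, 6 cell cycle genes were called in males on day 29 in place of 15. Why calls were lost was not tested.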
